A study of Mus musculus with 53 samples.

Results

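Genes of the brain vasculature and the blood-brain barrier were followed through the hypothalamic libraries of Nnat+/-p mice and their Nnat+/+ littermates. There were 40 of them among the 53379 genes counted, chosen by name and found by gene symbol. The rule used no measured value, but the genes were chosen with earlier results of these data known. By role they were 12 surface and secreted proteins of endothelial cells, 4 endothelial receptor tyrosine kinases, 3 endothelial transcription factors, 3 tight junction proteins, 9 barrier transporters and their partners, 6 genes used as pericyte markers and 3 smooth muscle genes. In males, 30 of the 40 were higher in the paraventricular nucleus (PVN) than in the arcuate nucleus (ARC) and 0 were lower, with a median log2 difference of 0.79, beside 20.5% of all genes called higher, 34.4% called in either direction and a median of 0.13 over all genes. None was called for genotype, weight class or diet in either nucleus or either sex by edgeR's quasi-likelihood test.

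The mice were C57BL/6, aged 13 to 14 weeks per the protocol. Nnat+/-p mice carried a null allele of Nnat on the paternal chromosome, which holds a lacZ cassette and no exons 2 and 3, and Nnat+/+ littermates served as wild type (WT). Nnat is imprinted and expressed from the paternal copy, and the null allele was constitutive rather than limited to a cell type. Chow-fed Nnat+/-p mice were divided by labelled weight into obese animals (males 38.8 to 46.5 g, females 31.5 to 33.35 g) and non-obese animals (males 27.4 to 34.3 g, females 20.4 to 23.9 g). The male PVN libraries used were 3 WT, 4 obese and 3 non-obese Nnat+/-p on chow, and 6 WT and 3 Nnat+/-p on the diet labelled 45% high fat (HFD). The male ARC libraries were 2 WT, 4 obese and 4 non-obese Nnat+/-p on chow, and 6 WT and 4 Nnat+/-p on HFD. The female PVN libraries were 4 WT, 3 obese and 3 non-obese Nnat+/-p, all on chow. RNA came from laser-captured nuclei, so each library mixed vessels with neurons and glia. In such bulk samples, fewer cells of a type and less RNA per cell cannot be told apart. PVN males, ARC males and PVN females were 3 separate sequencing tables, so nucleus and sequencing pool cannot be told apart either. Most libraries of a group carry their own body weight in the labels, but libraries 1 and 2 share 24.1 g and libraries 39 and 40 share 34.3 g, so p-values measure the spread between these samples, which may in part be technical. Of the labelled weights, 16 were shared by PVN and ARC libraries of the same genotype, diet and weight class, 16 PVN and 17 ARC libraries in all, so most male PVN and ARC libraries may come from the same animals.

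Brain capillaries are lined by endothelial cells joined by tight junctions, which close the path between cells. Substances therefore cross through transporters, and efflux pumps return many drugs to the blood. Pericytes share the basement membrane of the capillary endothelium, smooth muscle cells wrap arterioles, and Wnt signals from neural cells to the endothelium induce and maintain the barrier. The PVN is known for its dense capillary bed among hypothalamic nuclei, and the ARC lies beside the median eminence, whose capillaries are fenestrated.

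Totals were 2268021 to 8560199 counts in the 19 male PVN libraries, 1479953 to 18058097 in the 20 male ARC libraries and 6219365 to 30228973 in the 10 female PVN libraries. Nnat separated the genotypes as labelled, at 270 to 572 CPM (read counts scaled to a common library size with TMM factors) in every WT library and 0.324 to 13.6 CPM in every Nnat+/-p library. The labelled weights 42.9 g and 43.9 g were each shared by a PVN and an ARC library of opposite genotype. The methods describe brains of male mice, whereas 1 table is labelled female, and Xist stood at 66.7 to 136 CPM there against at most 4.13 CPM in the male libraries. Of the 53 libraries, 4 were left out, 3 for totals of 2302, 812815 and 271324 counts and 1 whose labels give both nuclei. Libraries 15 (chow WT) and 24 (HFD WT), labelled male PVN, stood apart. Their summed CPM of the PVN neuron genes Avp, Oxt, Sim1, Trh and Crh were 10.1 and 146, against 505 to 1965 in the other 17 male PVN libraries and 8.98 to 71.2 in the ARC. Their summed ARC neuron genes (Agrp, Npy, Pomc, Cartpt, Ghrh and Tac2) were 192 and 86.0 CPM, against 10.0 to 35.1 in the other 17. Library 35, labelled ARC chow WT and left out for its 271324 counts, shares the labelled weight of 32.45 g with library 15. Its PVN and ARC neuron genes summed to 682 and 11.1 CPM without TMM factors. Male PVN comparisons that hold libraries 15 and 24 are given with and without them, a choice made after seeing the data.

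A module mean was formed for each library as the mean over the 40 genes of log2(CPM + 1). It was 3.89 ± 0.260 (SD, n = 19) in male PVN, 3.22 ± 0.158 (n = 20) in male ARC and 3.96 ± 0.272 (n = 10) in female PVN. The 19 male PVN values ran from 3.30 to 4.33 and the 20 ARC values from 2.99 to 3.55. The only male PVN libraries within the ARC range were 15 and 24, at 3.30 and 3.35, and without them the PVN values began at 3.72 and averaged 3.96 ± 0.177 (n = 17). The female PVN values ran from 3.46 to 4.36 and overlapped the ARC range through 1 non-obese Nnat+/-p library, number 10. Within a nucleus the groups overlapped. In male PVN on chow, WT had 3.73 ± 0.388 (n = 3), obese Nnat+/-p 3.94 ± 0.254 (n = 4) and non-obese Nnat+/-p 3.92 ± 0.0739 (n = 3). On HFD, WT PVN had 3.90 ± 0.348 (n = 6) and Nnat+/-p PVN 3.94 ± 0.0485 (n = 3). Without libraries 15 and 24, WT PVN had 3.94 ± 0.187 (n = 2) on chow and 4.02 ± 0.242 (n = 5) on HFD. The difference of obese Nnat+/-p from WT then moved from 0.210 to -0.001, that of non-obese Nnat+/-p from 0.199 to -0.012, that of HFD from chow in WT from 0.178 to 0.078 and that of Nnat+/-p from WT on HFD from 0.035 to -0.076. In the ARC on chow, WT had 3.33 ± 0.0629 (n = 2), obese Nnat+/-p 3.15 ± 0.131 (n = 4) and non-obese Nnat+/-p 3.28 ± 0.170 (n = 4). On HFD, WT ARC had 3.21 ± 0.140 (n = 6) and Nnat+/-p ARC 3.21 ± 0.245 (n = 4). Female WT, obese and non-obese PVN had 3.90 ± 0.207 (n = 4), 4.04 ± 0.207 (n = 3) and 3.95 ± 0.457 (n = 3).

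**Figure D1:**
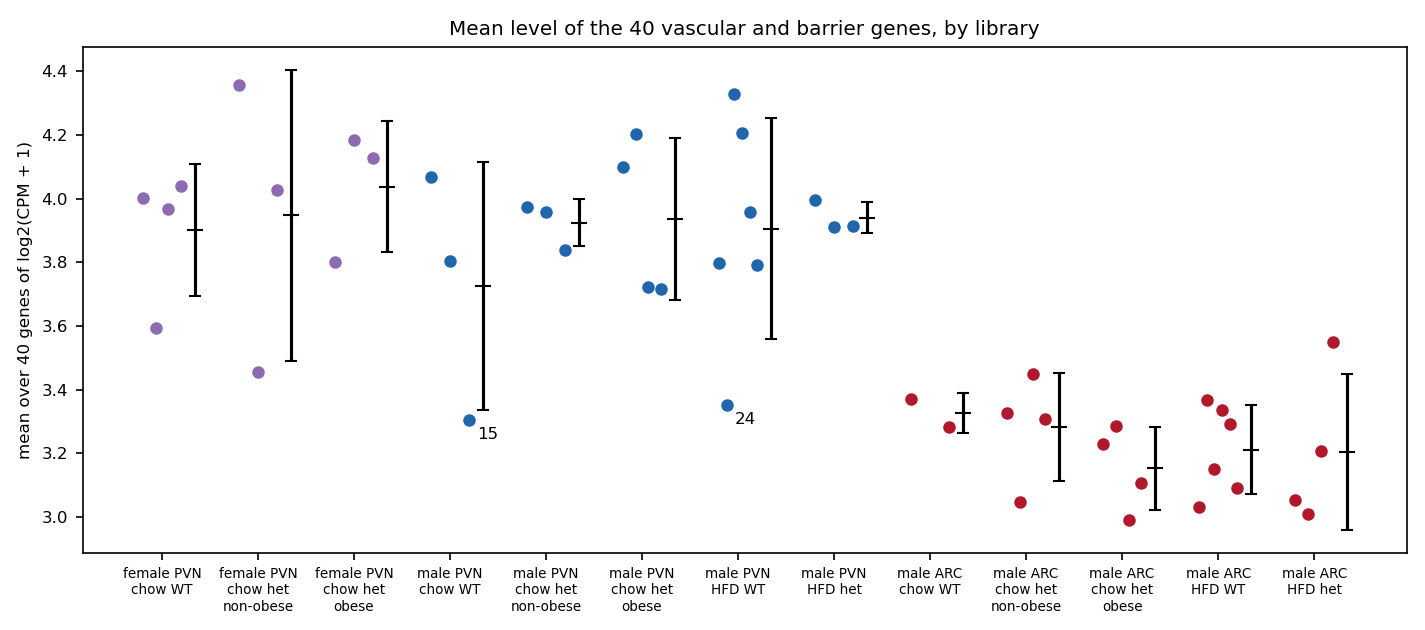
Module mean of the 40 vascular genes, as the mean log2(CPM + 1), for each of the 49 libraries, one point per library, grouped by nucleus, sex, genotype, diet and weight class. Male ARC libraries lie between 2.99 and 3.55, and male PVN libraries between 3.30 and 4.33 with libraries 15 and 24 lowest at 3.30 and 3.35.

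Levels between genes were compared per kilobase of merged exon. Bsg, the chaperone subunit of lactate transporters that is also found outside vessels, was highest, at 191 ± 29.2 CPM per kb in male PVN (SD, n = 19) and 138 ± 15.1 in male ARC (n = 20). It was followed in male PVN by Rgs5 (22.8 ± 7.43 CPM per kb), Itm2a (19.7 ± 6.51), Slc2a1 (15.7 ± 4.51) and Vtn (14.7 ± 4.09), whose ranges of mean ± SD overlapped from each gene to the next. Lowest were Gkn3 (0.993 ± 1.36 CPM per kb), Kcnj8 (0.960 ± 0.635) and Vwf (0.891 ± 0.380), which did not differ beyond their spread. Cldn5, Flt1, Cdh5 and Pecam1 had counts in all 49 libraries, whereas Gkn3 was at 0 in 20 libraries and Kcnj8 in 8. Other endothelial genes were also at 0 in some libraries. Library 10 (female PVN) had 8 members at 0, among them Esam, Emcn, Vwf, Ly6a, Ly6c1 and Erg.

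RefSeq start sites on GRCm38.p6 were at hand for 27 of the 40 genes, with 35 promoters among them. The 250 bases upstream of the start are shown for 4 genes that were higher in PVN, 1 each for a vascular endothelial growth factor receptor, an angiopoietin receptor, a tight junction protein and a transporter. They are Flt1 (chr5:147726012-147726261, minus strand), Tek (chr4:94739039-94739288, plus strand), Cldn5 (chr16:18776597-18776846, plus strand) and Slco1a4 (chr6:141856221-141856470, minus strand). Capitals mark AACAAT, a core that SOX factors bind, or its reverse complement; CAGGAAG, an ETS-type core, was also searched for on both strands and has no match in these 4 windows. Sequences read 5′ to 3′ on the gene's strand.
Flt1: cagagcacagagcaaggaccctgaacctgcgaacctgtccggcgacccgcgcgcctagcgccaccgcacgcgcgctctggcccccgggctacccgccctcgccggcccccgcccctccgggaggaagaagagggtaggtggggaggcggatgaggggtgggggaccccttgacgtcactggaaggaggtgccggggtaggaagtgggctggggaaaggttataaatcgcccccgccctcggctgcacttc
Tek: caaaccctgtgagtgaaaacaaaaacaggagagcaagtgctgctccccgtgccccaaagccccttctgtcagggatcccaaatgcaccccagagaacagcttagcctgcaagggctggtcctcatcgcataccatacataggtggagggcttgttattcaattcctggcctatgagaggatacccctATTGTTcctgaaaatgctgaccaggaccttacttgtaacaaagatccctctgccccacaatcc
Cldn5: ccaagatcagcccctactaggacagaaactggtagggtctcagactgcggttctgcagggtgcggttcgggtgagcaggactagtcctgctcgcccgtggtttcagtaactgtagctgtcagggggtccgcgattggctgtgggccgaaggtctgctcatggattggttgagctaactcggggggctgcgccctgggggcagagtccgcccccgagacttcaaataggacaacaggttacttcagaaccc
Slco1a4: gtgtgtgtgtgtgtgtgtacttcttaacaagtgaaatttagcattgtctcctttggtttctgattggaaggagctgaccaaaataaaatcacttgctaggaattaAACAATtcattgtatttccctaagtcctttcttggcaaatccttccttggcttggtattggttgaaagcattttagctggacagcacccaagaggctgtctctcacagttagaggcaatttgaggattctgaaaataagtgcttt
AACAAT was found in 4 of the 35 member promoters (11.4%), those of Emcn, Erg, Slco1a4 and Tek, and in 9.42% of all 32851 promoters of this length. CAGGAAG was found in 7 of 35 (20%), belonging to Abcg2, Egfl7, Emcn, Erg and Itm2a, and in 10.8% of all. A match is a description of the letters only.

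The comparison of the nuclei was fitted in males over 21400 genes, with 1 coefficient for each of 10 groups and the PVN minus ARC difference averaged over the 5 matched groups. At an adjusted p under 0.25, the study's threshold, 34.4% of all genes tested were called and 20.5% were higher in PVN, and the 30 of 40 members called higher are read beside that background. The median log2 difference of the members was 0.79, against 0.13 for all genes tested, and 36 of the 40 were positive against 60.1% of all genes. At an adjusted p under 0.05, 26 members were called, where 3376 of the 21400 genes were. Across all 19 PVN and 20 ARC libraries the ranges of every member overlapped (0 of 40, and 0% of all genes, lay wholly above). Without libraries 15 and 24, Flt1 alone of the 40 lay wholly above the ARC, as did 0.164% of all genes. The 30 calls and their direction also stood without those libraries, where the members' median was 0.88. With labelled weight as a block, over the libraries that share one, 30 members were called and the median was 0.97. Scaling by total counts without TMM factors moved the median of all genes from 0.13 to 0.46 and the share of calls that were higher from 59.8% to 90.2%. The members' median was then 1.15, and its distance from the median of all genes was 0.69, against 0.66 with TMM.

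**Figure D2:**
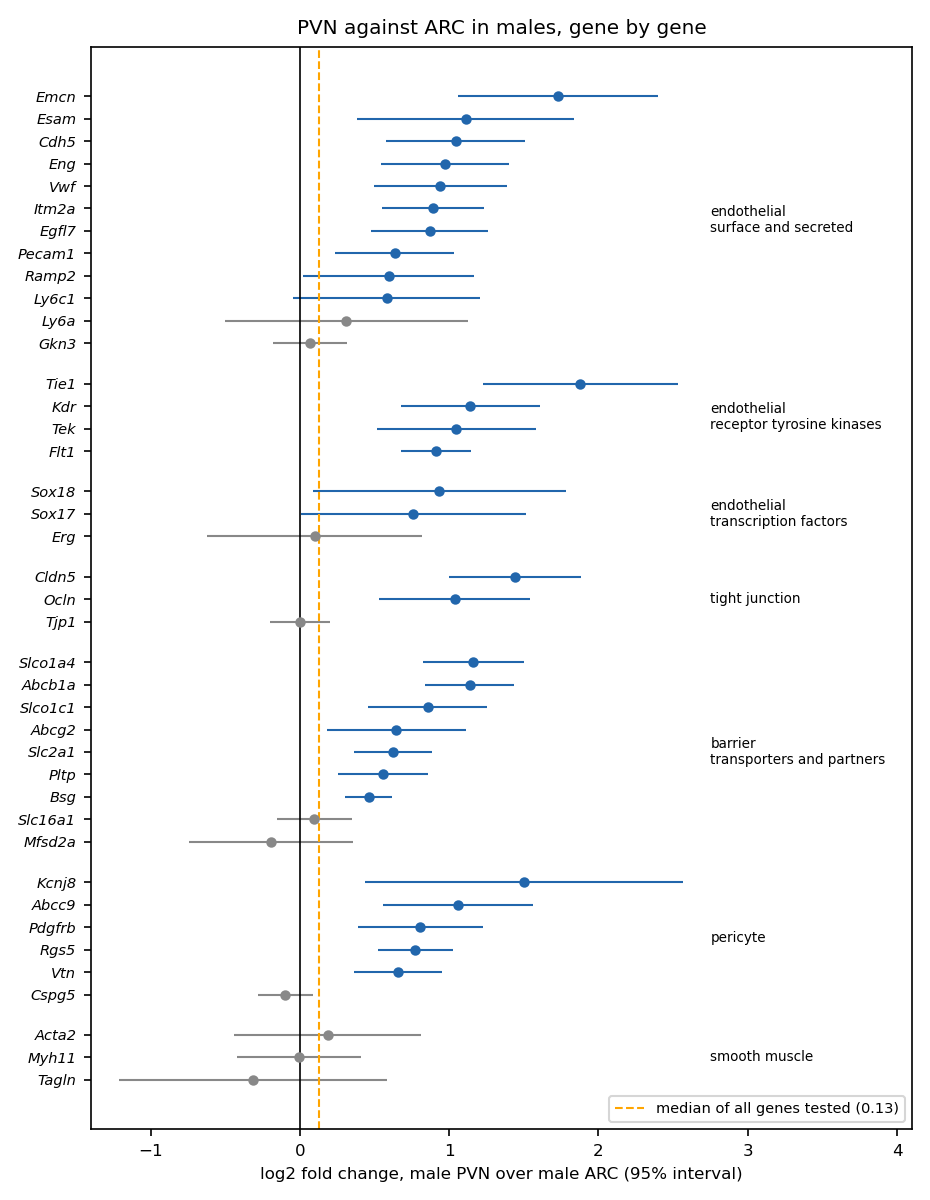
Fitted log2 difference of each of the 40 genes between male PVN (19 libraries) and male ARC (20 libraries), with 95% confidence intervals, ordered by role. Tie1 (1.88) and Emcn (1.73) have the highest estimates, and the 3 smooth muscle genes, Tjp1 and Cspg5 lie near 0.

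All 4 receptor tyrosine kinases were higher in PVN, with a median log2 difference of 1.09. Flt1 is a receptor for vascular endothelial growth factors that binds Vegfa and Vegfb. Flt1 had 34.1, 73.5 and 102 CPM (lowest, median, highest) in male PVN, 22.8, 38.0 and 49.1 CPM in male ARC and 68.7, 95.4 and 117 CPM in female PVN. Its difference was 0.91 on the log2 scale (SE 0.117, adjusted p = 2.19e-08, edgeR). The lowest PVN values were those of libraries 15 and 24, at 34.1 and 38.9 CPM, and the next was 55.3 CPM, above every ARC library. Kdr, the main signalling receptor for Vegfa, had 5.80, 13.7 and 34.9 CPM in male PVN and 2.10, 7.37 and 21.1 CPM in ARC, a log2 difference of 1.14 (SE 0.233, adjusted p = 0.000253). Tek, the receptor of angiopoietins, had 5.35, 10.6 and 28.2 CPM against 0, 5.63 and 10.6 CPM, a log2 difference of 1.05 (SE 0.266, adjusted p = 0.00362). Tie1, its partner receptor, had the largest difference of the 40, at 1.88 (SE 0.327, adjusted p = 1.78e-05). Tie1 stood at 1.38, 8.66 and 23.7 CPM in male PVN against 0, 2.56 and 10.7 CPM in ARC, where 2 libraries were at 0, and the ranges of Kdr, Tek and Tie1 overlapped.

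Of the 12 surface and secreted endothelial genes, 10 were higher in PVN and all 12 estimates were positive, with a median of 0.88. Emcn, a sialomucin of capillary and venous endothelium, had 2.14, 5.98 and 17.5 CPM in male PVN and 0, 1.88 and 8.27 CPM in ARC, a log2 difference of 1.73 (SE 0.335, adjusted p = 0.000115). Cdh5, the cadherin of endothelial adherens junctions, had 5.32, 14.5 and 36.5 CPM against 1.78, 7.14 and 13.3 CPM, a log2 difference of 1.04 (SE 0.234, adjusted p = 0.000888). Esam, an adhesion molecule of endothelial junctions, had 1.34, 6.93 and 11.8 CPM against 0, 2.27 and 11.2 CPM, a log2 difference of 1.11 (SE 0.363, adjusted p = 0.0278). In these 3 genes the PVN median was above the ARC median and the ranges overlapped. Eng, a TGF-beta co-receptor, had 6.61, 13.5 and 27.8 CPM against 1.83, 6.82 and 13.8 CPM (log2 difference 0.97, adjusted p = 0.00077). Vwf, the secreted glycoprotein that tethers platelets, had 6.05, 12.1 and 29.7 CPM against 1.53, 6.09 and 19.3 CPM (0.94, adjusted p = 0.00172). Itm2a, a membrane protein that marks barrier endothelium, had 11.3, 35.3 and 51.3 CPM against 7.32, 19.1 and 31.1 CPM (0.89, adjusted p = 8.26e-05). Medians of all 3 were again higher in PVN with overlapping ranges. Egfl7, a factor secreted by endothelium, had 6.61, 10.9 and 19.2 CPM against 2.77, 6.84 and 10.4 CPM (0.87, adjusted p = 0.00091). Pecam1, the platelet endothelial adhesion molecule, had 6.10, 15.4 and 35.0 CPM against 1.22, 9.23 and 16.6 CPM (0.64, adjusted p = 0.0216). Ramp2, which partners the adrenomedullin receptor, and Ly6c1, a surface antigen, were called at 0.25 but not at 0.05. Ramp2 had 2.26, 6.57 and 10.7 CPM against 0.452, 3.25 and 13.2 CPM (0.59, SE 0.286, adjusted p = 0.155). Ly6c1 had 1.22, 5.32 and 19.4 CPM against 0.621, 3.56 and 9.47 CPM (0.58, SE 0.312, adjusted p = 0.212), and it lost the call under 11 of 36 alternatives. Ly6a (0.31, adjusted p = 0.711) and Gkn3 (0.07) did not pass the test.

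Of the 3 transcription factors, Sox18 and Sox17, which act in endothelial fate, were called at 0.25 and not at 0.05. Sox18 had 0.192, 5.16 and 13.3 CPM in male PVN and 0, 1.40 and 11.4 CPM in ARC, a log2 difference of 0.94 (SE 0.423, adjusted p = 0.128). Sox17 had 0.690, 3.13 and 13.1 CPM against 0, 1.95 and 9.94 CPM, a log2 difference of 0.76 (SE 0.376, adjusted p = 0.17). Both ranges overlapped, and without library 13, a chow WT PVN library, neither gene was called, with estimates of 0.44 for Sox18 and 0.50 for Sox17. Erg, an ETS factor of mature endothelium, stood at 0.10 (adjusted p = 0.983).

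Among the 3 tight junction genes, Cldn5 and Ocln were higher in PVN. Cldn5, the main claudin of the blood-brain barrier, had 7.34, 13.2 and 32.2 CPM in male PVN, 0.945, 5.79 and 11.1 CPM in ARC and 11.9, 20.2 and 58.0 CPM in female PVN. The log2 difference in males was 1.44 (SE 0.220, adjusted p = 1.37e-06), and every female PVN library lay above every male ARC library. Ocln, occludin, had 2.12, 8.38 and 17.8 CPM against 0.621, 3.76 and 8.38 CPM, a log2 difference of 1.04 (SE 0.252, adjusted p = 0.00235). Tjp1, the scaffold ZO-1 that many neural cells also express, had 43.5, 80.5 and 130 CPM in male PVN and 51.6, 80.4 and 103 CPM in ARC. Its difference was 0.003 with a 95% confidence interval of -0.20 to 0.20.

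**Figure D3:**
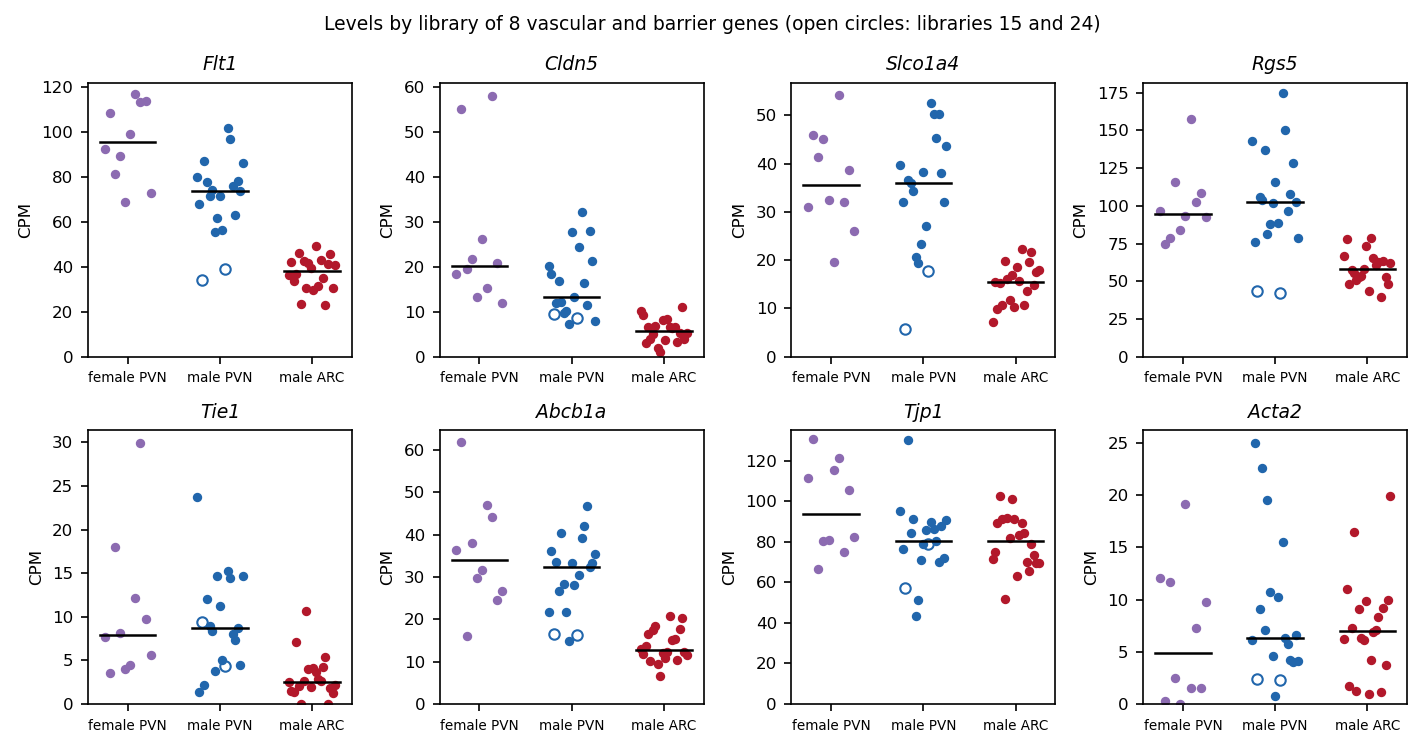
CPM per library of Flt1, Cldn5, Slco1a4, Rgs5, Tie1, Abcb1a, Tjp1 and Acta2 in male PVN (n = 19), male ARC (n = 20) and female PVN (n = 10). Points are libraries, open circles are libraries 15 and 24, and lines are medians; the Flt1 medians are 73.5, 38.0 and 95.4 CPM, while those of Tjp1 in the male nuclei are 80.5 and 80.4 CPM.

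Of the 9 transporters and partners, 7 were higher in PVN, with a median of 0.62. Abcb1a, the efflux pump P-glycoprotein, had 14.9, 32.3 and 46.8 CPM in male PVN and 6.62, 12.7 and 20.7 CPM in ARC, a log2 difference of 1.14 (SE 0.148, adjusted p = 3.51e-08). Slco1a4, an organic anion transporter of brain capillaries, had 5.71, 36.1 and 52.6 CPM against 7.11, 15.5 and 22.2 CPM, a log2 difference of 1.16 (SE 0.168, adjusted p = 3.93e-07). The lowest Slco1a4 values of male PVN came from libraries 15 and 24, at 5.71 and 17.7 CPM. Slco1c1, which carries thyroxine, had 6.95, 17.4 and 48.6 CPM against 2.49, 10.6 and 17.5 CPM (0.86, SE 0.198, adjusted p = 0.00133). Slc2a1, the glucose transporter of the barrier, had 24.0, 53.1 and 90.8 CPM against 14.9, 33.7 and 53.6 CPM (0.62, SE 0.131, adjusted p = 0.000361). Abcg2, a second efflux pump, had 4.07, 9.42 and 18.7 CPM against 1.04, 6.67 and 17.9 CPM (0.65, SE 0.233, adjusted p = 0.048). Medians of these 5 genes were higher in PVN, and their ranges overlapped. Pltp, a phospholipid transfer protein, had 14.8, 30.3 and 46.4 CPM against 8.39, 22.4 and 39.1 CPM (0.56, SE 0.151, adjusted p = 0.00698). Bsg had 233, 342 and 427 CPM against 180, 258 and 279 CPM (0.46, SE 0.0796, adjusted p = 1.67e-05). The 2 others did not pass the test: Slc16a1, the lactate and ketone transporter that Bsg escorts, stood at 0.10, and Mfsd2a, which carries lysophospholipids with docosahexaenoic acid, at -0.20.

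Of the 6 pericyte genes, 5 were higher in PVN, and the median over the 6 was 0.79. Rgs5, a regulator of G protein signalling abundant in pericytes, had 42.1, 103 and 175 CPM in male PVN and 39.3, 57.8 and 78.9 CPM in ARC, a log2 difference of 0.77 (SE 0.126, adjusted p = 5.29e-06). Libraries 15 and 24 again held the lowest PVN values of Rgs5, at 43.3 and 42.1 CPM, and the next was 75.9 CPM. Pdgfrb, the receptor through which endothelial PDGF-B recruits pericytes, had 7.22, 16.2 and 29.9 CPM against 1.53, 8.74 and 18.0 CPM (0.81, SE 0.208, adjusted p = 0.00424). Vtn, vitronectin, had 16.9, 29.0 and 49.1 CPM against 5.43, 17.9 and 38.0 CPM (0.66, SE 0.146, adjusted p = 0.00081). Abcc9 and Kcnj8 encode the subunits of the pericyte potassium channel gated by ATP. Abcc9 had 4.37, 10.4 and 19.6 CPM against 0.254, 5.49 and 11.4 CPM (1.06, SE 0.252, adjusted p = 0.00185). Kcnj8 had 0, 1.82 and 5.79 CPM against 0, 0.874 and 2.54 CPM (1.5, SE 0.532, adjusted p = 0.0438), with 1 PVN and 4 ARC libraries at 0. Cspg5, a proteoglycan that neurons and glia also make, had 74.4, 106 and 149 CPM against 82.6, 117 and 152 CPM, and its estimate of -0.10 did not pass the test.

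None of the 3 contractile smooth muscle genes passed the test. Acta2, smooth muscle actin, had 0.751, 6.32 and 25.0 CPM in male PVN and 0.904, 6.97 and 19.9 CPM in ARC, a log2 difference of 0.19 with an interval of -0.44 to 0.81. Myh11, the smooth muscle myosin heavy chain, had 5.22, 18.4 and 44.2 CPM against 6.17, 16.3 and 32.2 CPM (-0.01, interval -0.42 to 0.41). Tagln, transgelin, had 0, 2.12 and 9.84 CPM against 0, 2.73 and 11.8 CPM (-0.31, interval -1.21 to 0.58). Without TMM factors Acta2 was called, at 0.52. The 3 genes moved together between libraries: after removal of group means, the median pairwise correlation over 49 libraries was 0.41 (0.28 to 0.71 over 3 pairs), against 0.10 over all 780 pairs of members, which share library and depth.

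**Figure D4:**
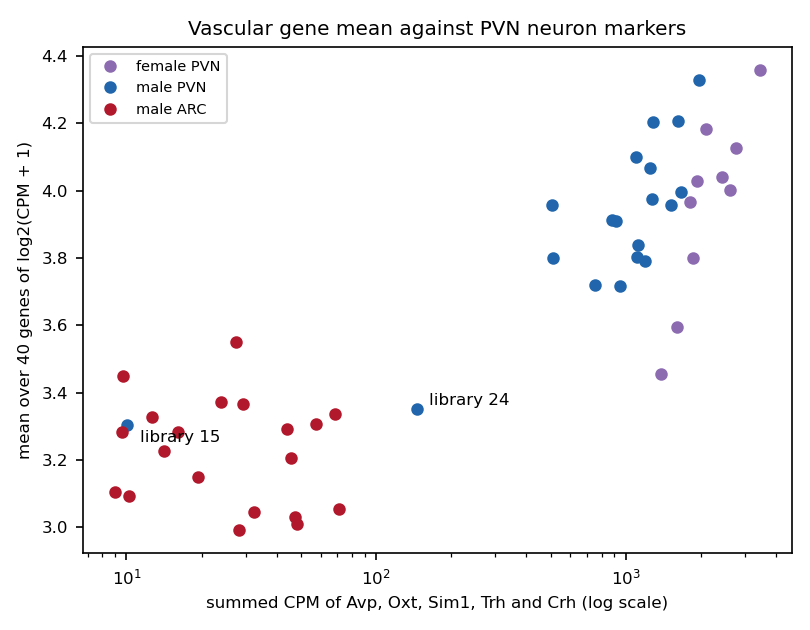
Module mean of the 40 vascular genes (mean log2(CPM + 1)) against the summed CPM of the PVN neuron genes Avp, Oxt, Sim1, Trh and Crh on a log axis, one point per library (n = 49). Male ARC libraries lie at 8.98 to 71.2 CPM, and libraries 15 and 24 at 10.1 and 146 CPM with module means of 3.30 and 3.35.

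Marker genes of other cell types were also called in the same comparison, where 13.8% of all genes were lower in PVN and 20.5% higher. The part of these cell types in the result was not tested. The summed astrocyte markers had a median of 1423 CPM (1083 to 2261) in male PVN and 2048 CPM (1717 to 2437) in ARC, with 6 of 7 genes lower in PVN. Of the 7 microglial markers, 4 were lower, at 76.9 CPM (52.2 to 121) and 113 CPM (83.2 to 132). Of the 5 neuron markers, Rbfox3, Snap25 and Syt1 were lower and Tubb3 higher, with summed medians of 975 CPM (666 to 1578) and 1166 CPM (652 to 1558). Of the 7 choroid plexus and ependyma markers, 2 were lower. The oligodendrocyte genes Mbp (-0.67), Mog (-1.05), Mag (-0.59) and Cnp (-0.43) were each lower in PVN. The 8 fibroblast markers summed to medians of 27.4 CPM (9.95 to 79.1) and 26.8 CPM (11.2 to 75.5), with 2 higher and 1 lower. Of the 5 red blood cell genes, Hba-a1 and Hba-a2 were higher in PVN, at summed medians of 25.5 CPM (7.25 to 69.1) and 13.3 CPM (3.33 to 51.9).

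Genes of neighbouring pathways were described from lists chosen by name. Of 14 genes of barrier Wnt signalling, 4 were higher in PVN and 1 lower, a share of called genes close to the 34.4% of all genes. The receptor Fzd6 was higher by 1.92 on the log2 scale (SE 0.295, adjusted p = 1.55e-06), the inhibitor and endothelial Wnt target Apcdd1 by 1.07 (SE 0.186, adjusted p = 1.68e-05), the Wnt7 co-receptor Adgra2 (Gpr124) by 0.96 (SE 0.359, adjusted p = 0.0571) and the transcription factor Lef1 by 0.64 (SE 0.267, adjusted p = 0.092). The ligand Wnt7b was lower, at -0.30 (SE 0.151, adjusted p = 0.185), and the median of the 14 was 0.06. Of 8 vascular growth factors, 5 were higher, beside 20.5% of all genes, with a median over the 8 of 1.1. Pgf, a ligand of Flt1, was higher by 2.04 (SE 0.325, adjusted p = 3.25e-06) and Angpt1, the agonist of Tek, by 1.68 (SE 0.199, adjusted p = 3.28e-09). Vegfa was higher by 0.98 (SE 0.137, adjusted p = 1.9e-07), Tgfb1 by 1.23 (SE 0.331, adjusted p = 0.00641) and Vegfb by 0.24 (SE 0.110, adjusted p = 0.129). In WT, Tgfb1 averaged 55.0 CPM in PVN and 16.0 CPM in ARC on chow, but 2.80 and 3.12 CPM on HFD. Of the fenestrated endothelium genes, 2 could be tested. Plvap, which forms the diaphragms of fenestrae, stood at -0.10 and was not called, and Gpihbp1, which anchors lipoprotein lipase to capillaries, was higher by 1.24 (SE 0.647, adjusted p = 0.196). Gpihbp1 was low, with medians of 0.987 CPM in male PVN and 0.287 CPM in ARC, where 4 and 8 libraries were at 0.

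In female PVN, where only chow-fed mice were sampled, the module mean of 3.96 was set beside 3.89 in the male PVN, and the tables were not tested against each other. Every female library lay above every male ARC library for 3 of the 40, Flt1, Cdh5 and Cldn5, against 0.383% of all genes. These 10 female libraries and the 20 male ARC libraries differ in sex, nucleus and pool, which cannot be told apart.

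The next comparisons asked whether the loss of paternal Nnat, with or without obesity, was accompanied by a change of vascular genes, and both Nnat+/-p groups were set against the same WT libraries. In chow-fed male PVN, 0 of the 39 members tested were called for obese Nnat+/-p against WT (0.0256% of all genes were), 0 for non-obese against WT (0.0128%) and 0 for obese against non-obese (0% of 15618 genes). The numbers at an unadjusted p under 0.05 were 1, 0 and 1, and DESeq2 called 0 in each. Pecam1 had the smallest p for obese against WT, with 16.1, 16.3 and 35.0 CPM in the 4 obese libraries (lowest, median, highest) and 6.10, 8.81 and 11.6 CPM in the 3 WT libraries. Its values did not overlap, as was the case for 2 of the 39 members (the other was Abcc9) and for 2.25% of all genes in this direction, and the log2 difference of 1.22 (95% interval 0.25 to 2.20) had an unadjusted p of 0.0155 and an adjusted p of 1.00 by edgeR. For Flt1 the differences were 0.20 (-0.37 to 0.78) for obese and 0.26 (-0.36 to 0.87) for non-obese mice, and for Cldn5 -0.48 (-1.45 to 0.49) and 0.05 (-0.99 to 1.08). Without library 15 they were -0.07 (-0.66 to 0.52) and -0.03 (-0.65 to 0.59) for Flt1 and -0.74 (-1.78 to 0.31) and -0.21 (-1.33 to 0.90) for Cldn5, Pecam1 stood at 1.48 (0.33 to 2.64, adjusted p = 1.00, edgeR), and 0 members were called. The point estimates of the difference between the nuclei, 0.91 for Flt1 and 1.44 for Cldn5, lay above the upper ends of these intervals. That of Pecam1 lay inside its intervals. Pecam1 was not alone in this. Without library 15, the obese against WT intervals of Cdh5 (-1.03 to 1.27) and Tek (-0.695 to 1.95) also held their nucleus estimates.

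In chow-fed female PVN, all 40 members could be tested and 0 were called by edgeR for obese against WT (0.0129% of all genes), non-obese against WT (0.00646%) or obese against non-obese (0%). The numbers at an unadjusted p under 0.05 were 2, 1 and 1. DESeq2 called 1 member, Gkn3, in each comparison with WT, at adjusted p of 0.0367 for obese and 0.00922 for non-obese mice. Of all genes, DESeq2 called 0.849% for obese and 1.17% for non-obese against WT. Gkn3, a secreted gastrokine known from arterial endothelium of the brain, had 3.22, 10.7, 7.97 and 0.817 CPM in the 4 WT libraries. In the 6 Nnat+/-p libraries it was at 0 in 4 and at 0.0477 and 0.257 CPM in the others. The WT libraries thus lay above all Nnat+/-p libraries, as they did for 0.562% of all genes, and edgeR gave an adjusted p of 1.00 in both comparisons. In chow-fed male PVN the order was not the same, with 0 in all 3 WT libraries and 0 to 3.45 CPM in Nnat+/-p. Sox18 had the opposite order in females, at 0 to 4.03 CPM in WT and 4.15 to 7.46 CPM in Nnat+/-p, without overlap (0.336% of all genes), and was not called. Cdh5 fell short of the threshold for obese against WT, at -1.13 (-2.19 to -0.07, unadjusted p = 0.0384, adjusted p = 1.00, edgeR).

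In chow-fed male ARC, 38 members could be tested and 0 were called for obese against WT (0.0205% of all genes), non-obese against WT (0.0136%) or obese against non-obese (0.00682%). The numbers at an unadjusted p under 0.05 were 1, 0 and 3, and DESeq2 called 0. Of the last 3, 2 were contractile smooth muscle genes. Tagln had 0.236, 0.855 and 5.67 CPM in the 4 obese libraries and 9.39, 11.1 and 11.8 CPM in the 4 non-obese libraries, without overlap. Myh11 had 7.38, 12.7 and 20.8 CPM against 21.7, 27.1 and 32.2 CPM, also without overlap. In this comparison 3 of the 38 members lay wholly lower in obese mice (Pecam1 was the other), as did 1.11% of all genes. The log2 differences of Tagln and Myh11 were -2.47 (unadjusted p = 0.00215) and -1.04 (unadjusted p = 0.00515), both with an adjusted p of 0.999 by edgeR. Acta2, the other smooth muscle gene, overlapped, at 1.72 to 7.27 CPM in obese and 1.24 to 16.5 CPM in non-obese libraries. Cldn5 stood at 0.945 to 6.65 CPM in obese mice and at 9.21 and 10.2 CPM in the 2 WT libraries (-1.62, unadjusted p = 0.0285, adjusted p = 1.00, edgeR). Of the 38 members, 4 lay wholly below the 2 WT libraries there, beside 6% of all genes. The astrocyte gene Gfap was the one gene of the other cell types' lists called there, higher by 2.84 in obese mice than in WT (SE 0.458, adjusted p = 0.0149). Smooth muscle genes went the other way in chow-fed male PVN. There the estimates of all 3 were positive for obese against non-obese mice, with a median of 0.98 and 0 called.

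Diet was compared in WT males. In PVN, 0 of 40 members were called for HFD against chow, where 1.43% of all 17576 genes were, 2 had an unadjusted p under 0.05 and DESeq2 called 0. In ARC, 0 of 39 were called, where 1.16% of 15753 genes were, 0 had an unadjusted p under 0.05 and DESeq2 called 0. Pecam1 in PVN stood at 6.10, 8.81 and 11.6 CPM in the 3 chow libraries and at 10.1, 15.6 and 22.5 CPM on HFD, which overlap. Its log2 difference was 0.79 (0.05 to 1.53, adjusted p = 0.451, edgeR). Without libraries 15 and 24 it was called, as the only member, at 1.15 with an adjusted p of 0.249 (edgeR), where 4.91% of all genes were called. Among transporters, the HFD difference of Slco1a4 was 0.60 (-0.15 to 1.36) in PVN, where it was 0.29 (-0.30 to 0.89) without libraries 15 and 24, and 0.53 (-0.25 to 1.30) in ARC. Of the neighbouring lists, Tgfb1 was lower on HFD in both nuclei. In PVN it had 30.7, 32.8 and 102 CPM in the 3 chow WT libraries and 2.03 to 4.37 CPM in the 6 HFD WT libraries (-4.34, SE 0.636, adjusted p = 0.000731). In ARC it had 9.5 and 22.6 CPM on chow and 0.904 to 5.63 CPM on HFD (-2.39, SE 0.727, adjusted p = 0.239). Gpihbp1 was lower on HFD in PVN, at 2.56 to 10.9 CPM on chow and 0 to 0.987 CPM on HFD with 3 of 6 libraries at 0 (adjusted p = 0.0718). Marker genes of other cell types were called in the same comparisons, and their part was not tested. In PVN these were Pomc (-4.18), Lum (-4.32) and Rbfox3 (-0.93), of which Lum alone was called without libraries 15 and 24, where Tgfb1 (-4.55) and Gpihbp1 were also called. Fzd6, of the barrier Wnt list, was called in PVN only without these libraries, at -1.42 (SE 0.461, adjusted p = 0.183, edgeR). In ARC the called markers included Gfap (1.90), Cartpt (1.91), Col23a1 (2.94) and Mbp (-1.09).

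On HFD, genotype gave 0 members called in PVN (0.00569% of all genes) and 0 in ARC (0.0127%), with 0 and 1 at an unadjusted p under 0.05 and 0 by DESeq2 in both. Flt1 differed between Nnat+/-p and WT on HFD by 0.11 (-0.39 to 0.61) in PVN and 0.18 (-0.23 to 0.59) in ARC, and Bsg by 0.08 (-0.28 to 0.44) and 0.10 (-0.18 to 0.38). Without libraries 15 and 24 the PVN values were -0.02 (-0.44 to 0.40) for Flt1 and 0.04 (-0.34 to 0.43) for Bsg, and 0 members were called. Whether the diet difference in WT, or that of obese Nnat+/-p from WT on chow, differed between the 2 nuclei was tested by interaction. For diet in WT, 0 members were called (0.0187% of all genes) and 0 had an unadjusted p under 0.05. For obese Nnat+/-p against WT on chow, 0 were called (0% of all genes) and 3 had an unadjusted p under 0.05, Pecam1, Vwf and Gkn3, with adjusted p of 0.694 to 0.717. DESeq2 called 0 members in both interactions.

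**Figure D5:**
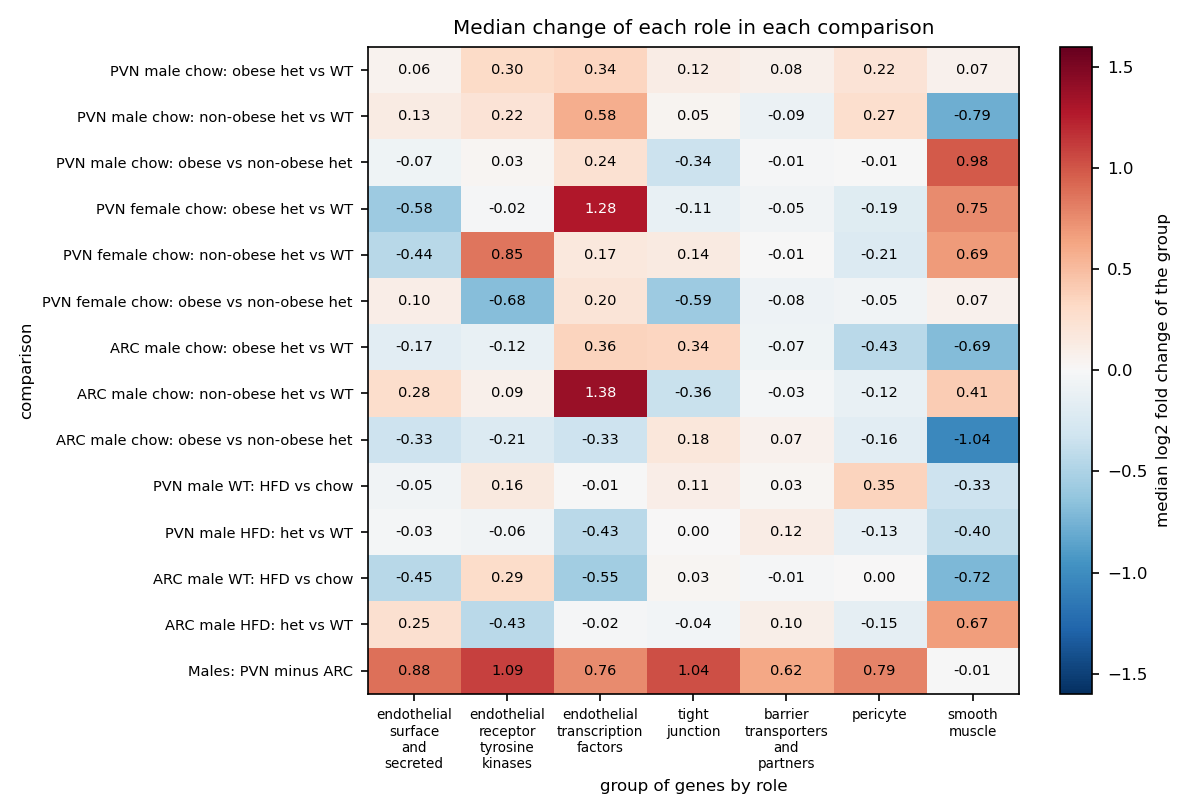
Median fitted log2 difference of the members of each role in each of 14 comparisons. The differences between male PVN and ARC reach 1.09 for receptor tyrosine kinases and -0.01 for smooth muscle genes, and no member was called in the other comparisons.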

How the data were processed

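RNA of laser-captured PVN and ARC was measured by low-input stranded total RNA sequencing. The authors deposited raw counts per Ensembl gene in 3 tables (male PVN, male ARC, female PVN). Per the submitters' processing notes, reads were aligned with STAR 2.5.0a to GRCm38; the counting tool, its annotation and its strand setting are not given in the sources used here, so overlapping and antisense genes cannot be told apart. The raw counts were used as deposited. Groups followed the labels for nucleus, sex, genotype, diet and weight.

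The members and lists were chosen with earlier results of these data known, and the lists of neighbouring genes and cell type markers support no result. All 40 members were accounted for by role, with per-library values for called members; other genes were named where called or where a text result turned on them. Genes were kept with filterByExpr (minimum count 10), scaled by TMM and tested with edgeR 4.0.16 (glmQLFit, glmQLFTest, R 4.3.3), with 1 coefficient per group and Benjamini-Hochberg adjustment over all genes tested. Results of the oligodendrocyte marker list as a whole are not reported here. Intervals are 95%. Genes were called at an adjusted p under 0.25. Printed CPM used TMM over all 49 libraries, and module means a pseudocount of 1. The counts of no 2 libraries of a group agreed within sampling noise, with a chi-square of at least 8.36 per degree of freedom. Exon lengths came from GENCODE M21 and promoters from RefSeq (GRCm38.p6).

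On simulated counts with 200 changed genes, the nucleus comparison (21400 genes) recovered 47% of genes changed by 1 on the log2 scale and 64% of those changed by 2, and 39.0% of its calls were false at 0.25 against 8.85% at 0.05. In the data this comparison called 34.4% of genes, a larger part than was changed in the simulation. The simulated false share therefore does not carry over to the calls in the data. The chow-fed comparison of obese with WT mice recovered 14% and 56% in male PVN (15620 genes), 4% and 27% in female PVN (15480) and 22% and 51% in ARC (14660). Diet recovered 17% and 45% in PVN (17580) and 19% and 52% in ARC (15750). Alternatives were DESeq2 1.42.0, its size factors, no filter on low counts, a threshold of 0.05, all labelled libraries, libraries 39 and 40 summed, labelled weight as a block, single libraries left out and, chosen after seeing the data, libraries 15 and 24 left out and no TMM factors. Single libraries were left out from every group but the HFD WT groups of PVN and ARC.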

Additional observations from a re-analysis of the deposited data

Results flagged for a closer look

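Of 84 sets of module means, role means and member levels in groups of 4 to 10 libraries, 3 held a library whose distance from its neighbour was large against the range of the group, where chance gives about 1 in 20. In female WT PVN, library 2 had a module mean of 3.594 against 3.967 to 4.039 in the other 3, while its Cldn5 was the highest, at 5.809 on the log2(CPM + 1) scale against 4.279 to 4.505. In non-obese Nnat+/-p ARC, library 40 had a mean of barrier transporters of 4.361 against 4.128 to 4.133 in the other 3. Library 32, which is in no group because its labels give both nuclei, held 1642 CPM without TMM factors over the 40 members. All 40 were detected. Its PVN neuron genes summed to 1254 CPM and its ARC neuron genes to 23.8 CPM, also without TMM factors. With TMM factors, the summed members stood at 861 to 1554 CPM in the 19 male PVN libraries and 678 to 968 CPM in the 20 male ARC libraries. The scalings differ, so the sum of library 32 cannot be placed against these ranges.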

How the results depend on the processing

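The count of 30 members higher in male PVN than ARC stayed between 26 and 34 under every alternative run, at 26 with an adjusted p under 0.05, 29 with every gene, and 34 without TMM factors, where the module mean difference moved from 0.65 to 0.926 and Cspg5 turned from -0.10 to 0.234. Leaving out 1 library of any group but HFD WT gave 27 to 30, with 27 without library 13. Of the 30, 25 were called under all 36 alternatives, and Ly6c1, Ramp2, Sox17, Sox18 and Kcnj8 lost the call under 11, 4, 4, 3 and 1. Acta2, Slc16a1, Tjp1 and Cspg5 were called without TMM factors, and Tagln was lower (-0.81) with all labelled libraries. Leaving out 1 library of any group but HFD WT gave 0 to 0 members called in every comparison within a nucleus and in both interactions. Counts above 0 within a nucleus were 2 with all labelled libraries for diet in ARC (Kcnj8 and Tagln), 1 with DESeq2 in each female comparison with WT (Gkn3), 5 with all labelled libraries for female obese against WT (Emcn, Gkn3, Ocln, Sox18 and Vwf), 3 for female obese against non-obese (Emcn, Sox18 and Vwf), and 1 without libraries 15 and 24 for diet in PVN (Pecam1). The libraries that all labelled libraries adds had 2302, 812815 and 271324 counts. In that setting 3.46% of all genes were called for diet in ARC, 6.04% for female obese against WT and 4.01% for female obese against non-obese. DESeq2 called 0.849% of all genes for female obese and 1.17% for female non-obese against WT. For diet in PVN without libraries 15 and 24 the share was 4.91%. Over all comparisons 311 alternative counts of members stayed on their side and 6 were higher, and of the alternative values of single members between the nuclei 1412 stayed, 23 lost a call, 4 gained one and 1 reversed.

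Library numbers run from 1 to 53 and pair no libraries. Labelled weights shared within a group by 16 PVN and 17 ARC libraries (16 weights) may pair the nuclei by animal, and with labelled weight as a block 30 members were called, with a median of 0.97. Counts over all genes moved more than those of the members: with every gene, 43 were called for obese against WT in male PVN in place of 4, 1134 for diet in PVN in place of 251, 547 for diet in ARC in place of 182 and 229 for female obese against non-obese in place of 0, and DESeq2 called 535, 336 and 58 in the last 3. Of the low members, Gkn3, Kcnj8 and Sox17 had medians of 0.309, 1.30 and 2.52 CPM over all libraries, and their detection at other depths was not tested. Known changes of 1 on the log2 scale were recovered least for female obese against WT, at 4%.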

Other observations

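Levels of Tgfb1 and Gpihbp1 varied in chow-fed Nnat+/-p PVN as widely as they differed between the diets in WT. Among the 7 male chow-fed Nnat+/-p PVN libraries, Tgfb1, a secreted regulator of vessel wall and immune cells, ranged from 1.32 CPM in library 22 to 97.5 CPM in library 20. The HFD Nnat+/-p PVN libraries had 2.16 to 7.68 CPM. Gpihbp1, found on endothelium that processes lipoproteins, ran from 0.778 CPM in library 16 to 19.6 CPM in library 19 over the same 7 chow-fed libraries, and from 0 to 0.698 CPM in the 3 on HFD. Tgfb1 was not called for genotype in any comparison, and Gpihbp1 in none of the male comparisons; it was not tested in female PVN.

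Of the 3 perivascular macrophage genes tested between the nuclei, 2 were higher in male PVN and 1 lower, and of 8 fibroblast genes 2 were higher and 1 lower, beside 34.4% of all genes called. The lists were not tested as wholes. Among the macrophage genes, Lyve1 was higher in male PVN by 2.91 on the log2 scale (SE 0.862, adjusted p = 0.0146, edgeR) and Mrc1 by 0.71 (SE 0.390, adjusted p = 0.23), whereas the scavenger receptor Cd163 was lower, at -1.14 (SE 0.487, adjusted p = 0.105). Among the fibroblast genes, the transporter Slc6a13 was higher by 1.53 (SE 0.657, adjusted p = 0.106) and Igf2 by 1.43 (SE 0.599, adjusted p = 0.0969), and the matrix proteoglycan Dcn was lower, at -0.54 (SE 0.277, adjusted p = 0.193). Among oligodendrocyte precursor genes, Cspg4, which pericytes also express, was higher by 0.67 (SE 0.165, adjusted p = 0.00249).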
